A study of Caenorhabditis elegans with 2 samples.

Results

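Distal intergenic peaks were those that lay in the spaces between genes and away from gene starts. Of the 1737 peaks that both replicates placed jointly, 316 had their summit, the base of highest signal, outside every protein-coding gene body. The summit also had to lie over 500 bp from the nearest protein-coding gene start and over 200 bp from tRNA, snRNA and snoRNA genes. They made up 18.2% of the joint list (95% Wilson interval 16.4 to 20.1). The other joint peaks were 979 promoter peaks, within 500 bp of a 5' end, 360 peaks in gene bodies and 82 peaks near tRNA, snRNA or snoRNA genes. Annotation came from Ensembl for WBcel235, the assembly also named ce11, and all positions count from 1.

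The study mapped the protein of attf-3 in Caenorhabditis elegans by chromatin immunoprecipitation with sequencing (ChIP-seq), in which DNA fragments held by a protein are recovered with an antibody and piled up into peaks. All material came from strain RW12296, whose attf-3 gene on chromosome III carries an inserted TY1::EGFP::3xFLAG tag made with CRISPR. Worms were synchronised as starved L1 larvae after bleaching and collected whole as young adults at 63 hours, and an anti-GFP antibody recovered the fusion protein. Both replicates, grown as separate biosamples, shared all of this, so 1 group of 2 was measured with no contrast between conditions, and whole worms do not tell which tissue a peak came from. The lists hold no read counts, so depth is unknown and intervals cover counting error over peaks only.

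attf-3 is named for the AT-hook, a short peptide that lies in the minor groove of AT-rich DNA. In the compact genome of C. elegans most transcription factor sites sit just upstream of genes, while the wider spaces between genes also hold enhancers, non-coding RNA genes, pseudogenes and the remains of mobile elements. Pseudogenes are disabled gene copies, and many stretches between genes recur at several places in the genome.

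The strongest of these peaks carried short words in common, so their summits are printed with 50 bp on either side, read from the RefSeq copy of the assembly. The first set holds 4 members of the largest sequence family, a stretch found beside pseudogenes on several chromosomes, aligned with each other. Capitals mark the 59 alignment columns that are identical in all 4 windows.
upstream of F08B4.3, chrIV:8665939-8666039, plus strand: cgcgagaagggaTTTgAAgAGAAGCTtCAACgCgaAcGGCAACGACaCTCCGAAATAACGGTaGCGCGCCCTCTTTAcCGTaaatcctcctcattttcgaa
upstream of F40H6.6, chrIII:6064936-6065036, plus strand: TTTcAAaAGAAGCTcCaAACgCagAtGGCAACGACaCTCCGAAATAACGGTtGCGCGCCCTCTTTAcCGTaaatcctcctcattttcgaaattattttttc
inside W02F12.1, chrV:6715011-6715111, plus strand: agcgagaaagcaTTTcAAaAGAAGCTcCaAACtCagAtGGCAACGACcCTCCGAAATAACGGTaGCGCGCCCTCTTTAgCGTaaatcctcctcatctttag
upstream of Y80D4G.1, chrIII:7601235-7601335, plus strand: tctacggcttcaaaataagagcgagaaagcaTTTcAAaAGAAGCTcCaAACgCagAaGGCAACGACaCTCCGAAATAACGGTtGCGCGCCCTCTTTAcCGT

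The second set holds the 4 strongest peaks whose sequence was found at only 1 place in the genome. Capitals mark the word CTCCG, the word ACGCG and the word GCGCG on either strand, and each window is shown on the strand that reads CTCCG.
between efa-6 and ark-1, chrIV:12621842-12621942, minus strand: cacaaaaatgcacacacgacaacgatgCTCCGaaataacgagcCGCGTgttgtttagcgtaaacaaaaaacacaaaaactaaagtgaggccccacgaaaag
between F13B12.1 and F13B12.2, chrIV:10425274-10425374, minus strand: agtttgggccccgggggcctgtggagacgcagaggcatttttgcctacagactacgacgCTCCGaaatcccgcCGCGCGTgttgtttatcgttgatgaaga
between algn-6 and T05H10.1, chrII:8041784-8041884, plus strand: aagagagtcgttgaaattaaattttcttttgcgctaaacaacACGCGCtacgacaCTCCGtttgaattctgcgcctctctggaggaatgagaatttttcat
between haf-2 and insc-1, chrII:7356965-7357065, minus strand: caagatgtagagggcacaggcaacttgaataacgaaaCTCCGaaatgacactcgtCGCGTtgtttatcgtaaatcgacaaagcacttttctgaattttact

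The windows of both sets shared longer runs than these words. The peak between efa-6 and ark-1 and the family member upstream of F40H6.6 shared the 13 bases CTCCGAAATAACG. The peaks between efa-6 and ark-1 and between algn-6 and T05H10.1 shared a run of 16 bases, read on opposite strands in the windows above, that starts in the capitals and goes on past them. The peaks near F13B12.1 and haf-2 shared a run of 12 bases. These runs were found after the windows had been seen, and they describe these windows only.

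The same words recurred across distal intergenic peaks far more often than in the spaces they lie in. The comparison set was the 293958 windows of the same length that tile the bases meeting the rule. These tiles were not matched for base content, with a median AT of 66.3% against 53.5% in the summit windows. GC-rich words are rarer in AT-rich sequence, and how much of the differences comes from base content was not tested. GCGCG, on either strand, was in 31.3% of the 316 summit windows (26.5 to 36.6) and in 3.71% of the tiles, and ACGCG, which can overlap it, was in 60 of the 316 against 3.90% of tiles. CTCCG was in 20.3% against 7.03%. The longer CTCCGAAAT was in 14 windows, 4.43%, against 0.112% of tiles, and CGACNCTCC was in 19 windows, 6.01%, against 0.0918%. Promoter peaks carried them at least as often, with GCGCG in 42.1%, CTCCG in 32.2% and CGACNCTCC in 13.6% of 979 windows. Peaks of the class in both own lists of the replicates had GCGCG in 43.9% and those in neither in 22.8%. GCGCG was in 31.1% of the 196 peaks with a single-locus sequence and in 31.7% of the 120 with 2 or more loci. CTCCG was in 46 of the 196 and in 18 of the 120. The longer words were more frequent in repeated sequence, with CTCCGAAAT in 2.55% of single-locus and 7.50% of multi-locus windows, and CGACNCTCC in 4.08% and 9.17%. Of the 14 windows with CTCCGAAAT, 9 were thus from sequence at 2 or more loci, where windows can be copies of each other. The words were picked after those of these windows had been counted, so the shares are a description.

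AT-rich sequence was scarcer than in the tiles at these summits. The median AT content of the windows was 53.5% (quartiles 47.5 and 60.4), while the tiles had a median of 66.3% (quartiles 60.4 and 72.3). The run AAAAAA was in 23.4% of summit windows against 45.9% of tiles, and AAATTT was in 17.4% against 28.2%. Promoter peaks had the same median AT content of 53.5%, peaks in gene bodies 51.5% and peaks near small RNA genes 48.5%. In the replicates' own lists the median of distal intergenic peaks was 54.5% in each.

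Where these peaks lay relative to genes followed from the rule at its lower edge and was free beyond it. The nearest protein-coding 5' end was 1482 bp away in the median (quartiles 768.5 and 3211; range 502 to 35376), while the median over all bases that meet the rule was 2301 bp. In the 250 bp just past the threshold lay 72 peaks, 22.8%, against 9.56% of the bases. Over all distances, 205 peaks, 64.9% (59.5 to 69.9), were upstream of the nearest start, against 71.9% of the bases. Over 2000 and up to 5000 bp there were 93 peaks, 29.4%, against 37.8% of the bases. Beyond 5000 bp there were 36, 11.4%, against 18.4%.

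**Figure D1:**
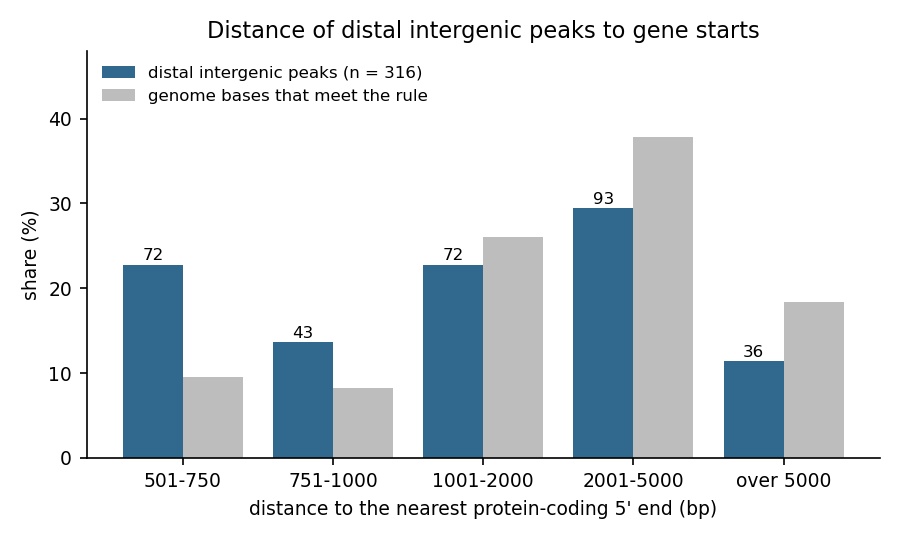
Share of the 316 distal intergenic peaks (blue, with counts) and of the genome bases that meet the same rule (grey), in percent, by distance in bp to the nearest protein-coding 5' end. Peaks exceed bases in the 2 bins up to 1000 bp (22.8% against 9.56% in the nearest) and fall below them in the 3 bins beyond.

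Among summits outside gene bodies and small RNA genes, 88 lay over 300 and up to 400 bp from a 5' end with a median signal of 123.9, and 50 lay over 400 and up to 500 bp away with a median of 130.0. Just past the threshold, 29 lay over 500 and up to 600 bp away with a median of 108.8, and 32 lay over 600 and up to 700 bp away with a median of 116.5. Using the 5' ends of every annotated transcript moved 4 of the 316 peaks into the promoter class.

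Gene ends were more often the nearer landmark than for the bases that meet the rule. The summit was nearer a protein-coding 3' end than a 5' end in 181 peaks, 57.3% (51.8 to 62.6), against 45.5% of the bases that meet the rule, and in the replicates' own lists this share was 60.3% ± 2.25 (SD, n = 2). Convergent intervals, in which the flanking genes point at each other so that no protein-coding promoter faces the space, held 68 peaks, 21.5% (17.3 to 26.4), against 13.8% of the bases. Divergent intervals, bounded by gene starts on both sides, held 71 peaks, 22.5% (18.2 to 27.4), against 31.9%. Tandem intervals held 176 peaks, 55.7%, close to their 54.0% of the bases, and 1 peak lay between the left end of chromosome X and its first gene. The median signal was 115.8 in convergent, 109.9 in divergent and 109.0 in tandem intervals.

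**Figure D2:**
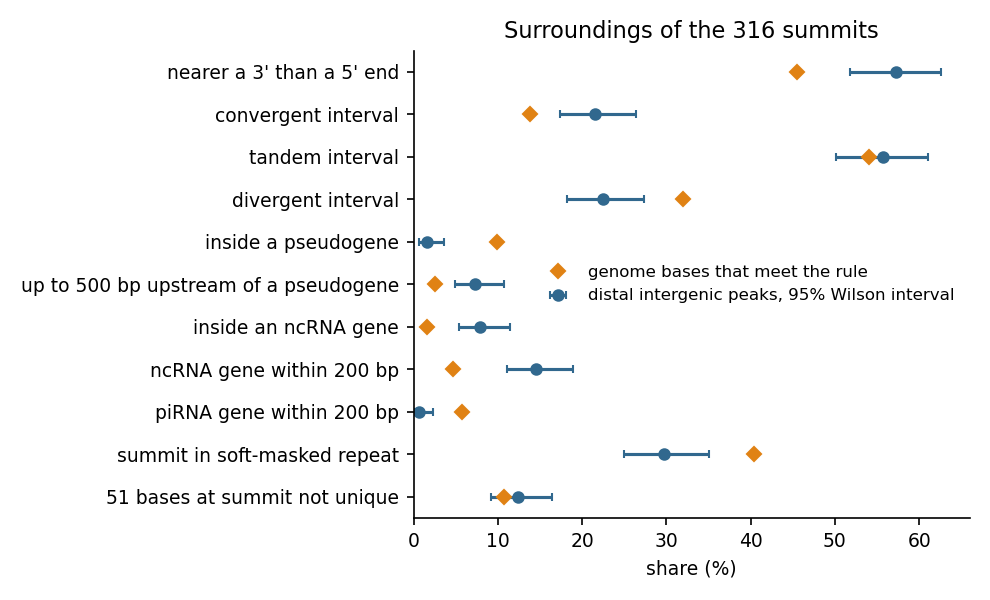
Share in percent of the 316 distal intergenic peaks (blue points with 95% Wilson intervals) and of the genome bases that meet the same rule (orange diamonds) for each kind of surrounding. Convergent intervals (21.5% against 13.8%), the 500 bp upstream of pseudogenes (7.28% against 2.51%) and ncRNA genes (7.91% against 1.63%) lie above the bases, while pseudogene bodies (1.58% against 9.86%), the 200 bp around piRNA genes (0.633% against 5.74%) and soft-masked repeats (29.7% against 40.4%) lie below.

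Summits lay in pseudogene bodies less often, and just upstream of pseudogenes more often, than the bases that meet the rule. Only 5 summits lay inside an annotated pseudogene, 1.58% (0.678 to 3.65), although pseudogene bodies fill 9.86% of the bases that meet the rule. Of all joint peaks, 0.691% lay inside one. In the joint list, nearness to a pseudogene in any direction, with its body counted in, was not above the bases. Within 200 bp, bodies included, lay 20 summits, 6.33% (4.13 to 9.57), against 11.8% of the bases, and the replicates' own lists gave 10.2% and 7.56%. Within 500 bp the shares were 12.3% (9.16 to 16.4) and 14.0%, while the own lists gave 17.0% and 15.7%. Of the 114 members in both own lists, 19.3% (13.1 to 27.5) lay that near. Within 500 bp upstream of a pseudogene's 5' end, however, lay 23 summits, 7.28% (4.90 to 10.7), against 2.51% of the bases. Promoter peaks were there in 7 of 979 cases and peaks in gene bodies in 12 of 360. In the replicates' own lists, 9.52% and 10.5% of distal intergenic peaks lay in these upstream stretches, 9.99% ± 0.666 (SD, n = 2). A further 11 summits lay within 500 bp downstream of a pseudogene. The share of bases on the downstream side alone was not computed, so the excess is not shown to be particular to the upstream side.

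Peaks upstream of pseudogenes were also strong and well supported. Their median signal was 142.2, against 108.8 for the 293 others, and 15 of the 23 were in both replicates' own lists, 65.2% (44.9 to 81.2), against 33.8% (28.6 to 39.4). The 293 include the 11 peaks downstream of pseudogenes, with signals from 4.55 to 699.7. Of all 39 within 500 bp in either direction, 22 were in both own lists. Strength and support are thus not shown to be particular to the upstream side. The 23 are not all separate sites, since T07D10.8, W05G11.2 and R12C12.8 each had 2 that shared their replicate peaks. At T07D10.8 both counted as in both own lists, with joint signals of 359.3 and 57.1. Sequence at 2 or more loci was present in 19 of the 23, and 8 belonged to the largest family, so these pseudogenes are not separate samples of the genome.

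The 39 summits within 500 bp in either direction, the 12.3% above, lay at 31 pseudogenes, with 23 upstream, 5 inside and 11 downstream. K08F11.6, a pseudogene of 2000 bp on the minus strand of chromosome IV, had a peak at either end. The one 72 bp upstream had a joint signal of 795.2, with 356.8 in replicate 1 and 434.3 in replicate 2. The one 361 bp past its other end reached 699.7, with 369.4 and 333.5. T26G10.7 on chromosome III and F27D4.3 on chromosome I also had a peak on both sides. The 11 downstream peaks included those by K07D4.1 (541.3) and Y116A8A.10 (368.5), which belong to 1 family of 9 loci.

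**Figure D3:**
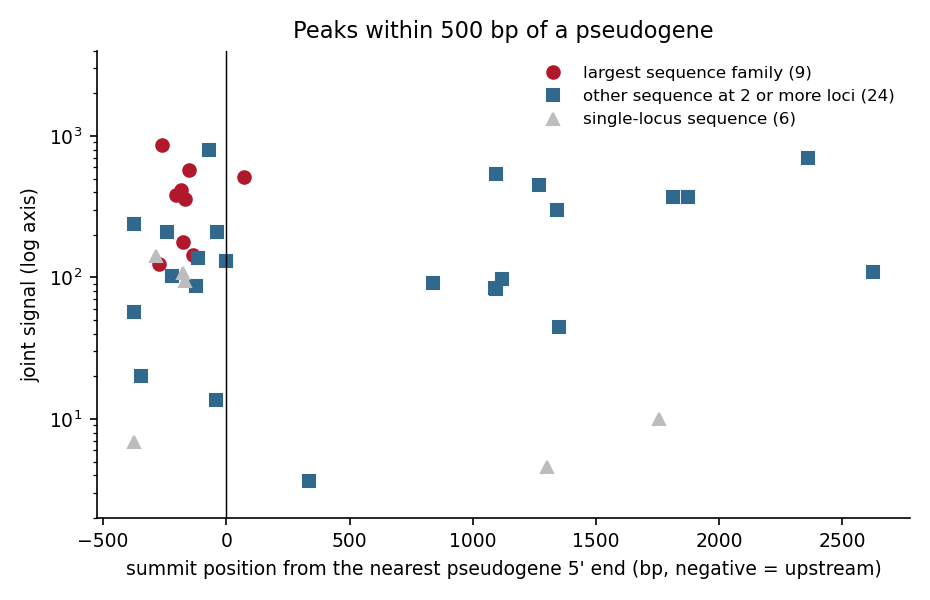
Joint signal (log axis, no unit given) of the 39 distal intergenic peaks within 500 bp of a pseudogene against the summit's position in bp from the nearest pseudogene 5' end, negative upstream. Red circles are the 9 members of the largest sequence family, of which 8 lie upstream, blue squares are 24 other peaks with sequence at 2 or more loci, and grey triangles are 6 single-locus peaks.

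Repeated sequence was more common among distal intergenic peaks than among all joint peaks. The share of bases that meet the rule was not computed for this alignment measure. A stretch aligning over at least 100 bp at 80% identity or more, across the summit, was found at 2 or more loci for 120 of the 316, 38.0% (32.8 to 43.4), while 21.4% of all 1737 joint peaks had one. The share was 10.4% of promoter peaks, 32.2% of peaks in gene bodies and 41.5% of peaks near small RNA genes. At 10 or more loci the share was 21.2% here and 4.39% at promoters. Of the 30 strongest distal intergenic peaks, 21 had such a sequence. Peaks with 2 or more loci had a median signal of 119.0 and 46.7% (38.0 to 55.6) were in both own lists, against 104.6 and 29.6% (23.6 to 36.3) for single-locus peaks. How the authors placed reads that match several loci is not given in the sources used here, and its part in these values was not tested.

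Marked repeats held a smaller share of these summits than of bases, but a larger share than of the other joint summits. Summits lay in soft-masked sequence, the repeats marked in lower case in RefSeq, in 94 peaks, 29.7%, against 40.4% of the bases that meet the rule. The share was 21.1% of promoter peaks, 19.4% of peaks in gene bodies and 6.10% of peaks near small RNA genes. The 51 bases centred on the summit occurred elsewhere unaltered for 39 of the 316 peaks, 12.3% (9.16 to 16.4), against 10.8% of bases. In the replicates' own lists the share was higher, 19.4% ± 0.509 (SD, n = 2). It was 18.4% (12.4 to 26.5) of the 114 members in both own lists and 7.09% (3.77 to 12.9) of the 127 in neither. On the autosomes, 48.1% of the multi-locus peaks lay in the middle part of the chromosome, between 25% and 75% of its length, against 61.1% of the single-locus peaks, 63.9% of promoter peaks and 47.3% of the bases that meet the rule.

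Alignment across summits tied 83 of the 316 peaks into 32 families of related joint peaks, and 24 families held 2 or more distal intergenic members. In some of the 24 these members lay in 1 locus, so they are neighbours and not separate copies. An example is the pair 199 bp apart between blmp-1 and maph-1.2 on chromosome I. The family with the most joint peaks, called the largest here, had 30 loci in the genome, and 16 of them, 53.3%, had a joint summit: 9 distal intergenic, 5 in gene bodies and 2 at promoters. All 9 distal members lay within 500 bp of a pseudogene, and 8 were in both own lists. The strongest, 263 bp upstream of F08B4.3 and 2946 bp upstream of the cadherin gene cdh-5, had a joint signal of 863.0, with 423.8 in replicate 1 and 437.4 in replicate 2. Upstream of F40H6.6 the values were 576.3, 290.5 and 280.8, and in W02F12.1, 71 bp past its start, 516.6, 283.8 and 236.7. Upstream of Y80D4G.1 they were 413.1, 178.0 and 229.9. The member upstream of T07D10.8 differed most of the 9 between replicates, with 225.0 in replicate 1 and 126.6 in replicate 2 beside a joint value of 359.3. The weakest of the 9 had a joint signal of 125.4, so close copies of 1 sequence spanned a wide range.

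Several smaller families were occupied as densely. One of 9 loci had 6 joint peaks, of which 5 were distal intergenic, each in both own lists. Its strongest member, between C46C2.7 and the kinase gene wnk-1, reached 978.9, and its weakest, beside ari-1.4, 266.9. One of 8 loci had 5 joint peaks, with 4 distal intergenic members between 268.7 and 795.2, and another of 8 loci had 5, with 3 distal members between 262.9 and 699.8. Some families with many loci were occupied sparsely. A family of 264 loci had joint summits at 8 of them, 3.03%, with 7 distal intergenic members between 87.4 and 278.2, and a family of 388 loci had 4.

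Annotated non-coding genes of the broad class ncRNA also stood out from the bases. Summits lay inside such a gene in 25 peaks, 7.91% (5.42 to 11.4), against 1.63% of the bases, and within 200 bp in 46, 14.6% (11.1 to 18.9), against 4.73%. The 25 lay in 21 genes, several of them in C30E1.9, so they are not all separate sites as the interval takes them to be. This was not particular to the spaces far from promoters, since 7.76% of promoter peaks and 11.9% of peaks in gene bodies lay inside one. Peaks within 200 bp of an ncRNA gene had a median signal of 98.2, and 12 of the 46, 26.1% (15.6 to 40.3), were in both own lists, against 37.8% (32.2 to 43.7) of the others. In the own lists the share inside an ncRNA gene was 3.40% and 5.23%, 4.32% ± 1.29 (SD, n = 2), below the joint list.

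The strongest peak within 200 bp of an ncRNA gene was the one between K08F11.1 and fbxb-78, which lay 149 bp from K08F11.7 and 361 bp from the pseudogene K08F11.6. F26F4.14 on chromosome III held a summit with a joint signal of 219.9, where replicate 2 (150.4) was well above replicate 1 (67.0). C08B11.11 on chromosome II held one of 190.8, with 114.7 in replicate 1 and 83.4 in replicate 2.

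Other non-coding classes had few members. A summit 81 bp from cel-mir-51, the gene of a microRNA, and inside F36H1.17 reached 171.2, with 86.5 and 92.0 in the replicates. Of the long intergenic RNA genes, linc-128 held a summit of 139.9 that was in both own lists, linc-146 held one of 89.1 in neither, and linc-91 lay 80 bp from one of 103.5. The antisense gene anr-58 lay 158 bp from a summit of 87.0. Genes of piRNAs, the small RNAs that guard the germ line, were within 200 bp of 2 peaks. These genes were 21ur-11151 and 21ur-13808, beside summits of 266.9 and 237.2. The share was 0.633% (0.174 to 2.28), against 5.74% of the bases and 0.691% of all joint peaks. No summit was within 200 bp of an rRNA gene, and 0 of 316 allows a share of up to 0.949%.

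In strength, distal intergenic peaks stood below promoters. Their median joint signal was 110.0 (quartiles 91.8 and 160.9; range 3.61 to 1906), against 141.1 at promoters, 125.0 near small RNA genes and 102.4 in gene bodies. The ratio of the median to that of all other joint peaks was 0.867 in the joint list, 0.872 in replicate 1 and 0.869 in replicate 2, where the same joint peaks were measured in each replicate (mean 0.870 ± 0.00185 SD, n = 2). Over the peaks of each replicate's own list it was 0.906 in replicate 1 and 0.837 in replicate 2, a wider spread (SD 0.0483, n = 2). The authors' signal has no stated scale, so values set side by side between the replicates' lists assume the same scale in both. Peaks of this class were 13 of the strongest decile of the joint list, 7.47%, and between 14.9% and 17.3% of the next 4 deciles. They were at least 20.2% of each of the weaker 5 deciles, most of all in decile 8 with 47 members.

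Of the class, 5 members ranked among the 100 strongest joint peaks. The highest, rank 16, spanned bases 12621699 to 12622065 of chromosome IV, 199 bp past the 3' end of the tyrosine kinase gene ark-1 and 7168 bp upstream of efa-6, which encodes an exchange factor for small GTPases. It had a joint signal of 1906, with 880.5 in replicate 1 and 1036 in replicate 2. The next, rank 33, spanned 10425128 to 10425492 of chromosome IV, 689 bp upstream of F13B12.1 and 907 bp from the 3' end of F13B12.2, and had 1480, with 721.7 and 732.5. On chromosome II, the peak 93 bp past algn-6, a gene of sugar attachment to proteins, and 755 bp upstream of T05H10.1 had 983.5, with 464.6 and 520.2. The peak 589 bp upstream of haf-2, which encodes a membrane transporter of the ABC class, had 894.9, with 440.0 and 470.1. The remaining one, joint rank 87, lay 336 bp past C46C2.7 and had 978.9, with 525.8 and 446.0, and its own ranks were 67 in replicate 1 and 106 in replicate 2. All 5 were in both own lists.

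The other named peaks of the 12 strongest had joint signals between 689.4 and 978.9, and all 12 were in both own lists. They included the peak 516 bp upstream of K12H4.5 (869.4), the peak 2402 bp upstream of the autophagy gene bec-1 (743.7) and the peak 650 bp upstream of rpa-2, a gene of the single-strand DNA binding complex of replication (699.8). The peak 63 bp past the collagen gene col-120 and 779 bp upstream of Y11D7A.10 had 689.4. A single-locus sequence was present in 7 of the 12.

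Support by the replicates was lower than at promoters. Of the 316, 114 overlapped a peak in both replicates' own thresholded lists, 36.1% (31.0 to 41.5), while 43.7% of all joint peaks did. Promoter peaks did so in 51.7% (48.6 to 54.8), peaks near small RNA genes in 45.1% and peaks in gene bodies in 28.3%. In neither own list were 127, 40.2% (34.9 to 45.7), against 32.7% of all joint peaks, and 75 were in 1 of them. Before the threshold, in the ranked lists, 306 of the 316 overlapped a peak in both replicates.

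Strength went with this difference. All 13 distal intergenic peaks in the strongest decile and all 26 in the next were in both own lists. In decile 4, 25 of 30 were, and in decile 5, 13 of 26, against 72.0% and 34.5% of the other joint peaks there. In decile 6, 4 of 36 were, and in decile 8, 0 of 47. In decile 10, 4 of 36 were, and all 4 overlapped a stronger peak. If distal intergenic peaks had been in both lists at the rate of the other peaks in the same decile, 107.3 of them would have been, against the 114 counted.

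**Figure D4:**
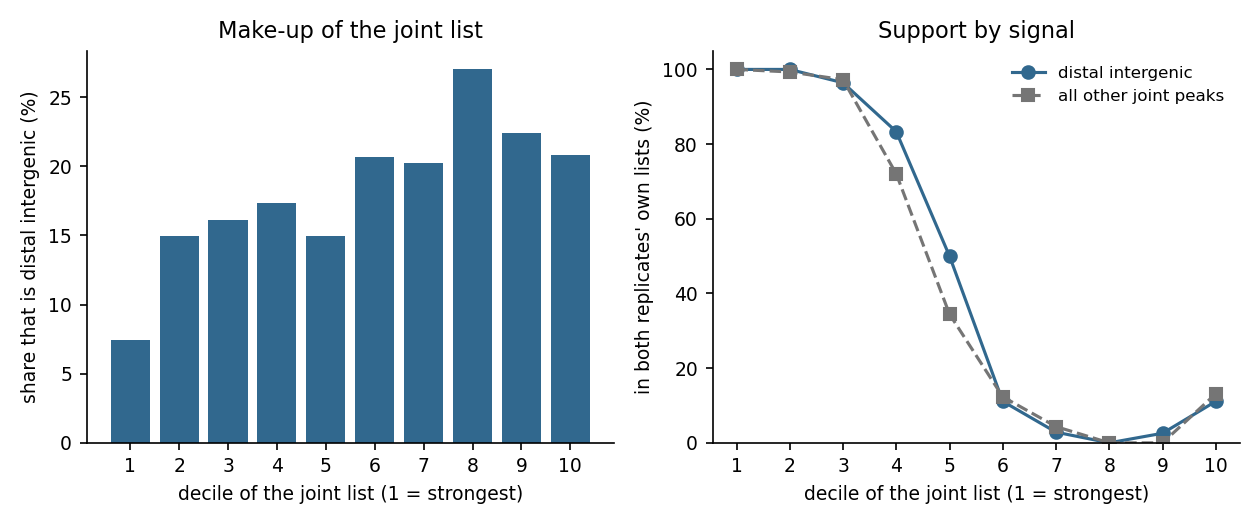
Left, share in percent of each decile of the joint list, from strongest (1) to weakest (10), that is distal intergenic. Right, percent of distal intergenic peaks (circles) and of all other joint peaks (squares) in both replicates' own lists, per decile. The share on the left is lowest in the strongest decile (7.47%), and both curves on the right start at 100% and are at 0% in decile 8.

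Signal per replicate, from the ranked lists, could be paired for those 306 peaks. Values agreed within 1.5-fold in 263 of them, 85.9%, and in 103 of the 114 peaks in both own lists. The median log2 ratio of replicate 1 to replicate 2 was -0.09 (quartiles -0.34 and 0.16), against -0.12 for the 1407 other joint peaks with both values. Across the 306 peaks Spearman's rho was 0.669, and across the other peaks it was 0.809; these describe peaks of the same pair of libraries, not independent samples.

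**Figure D5:**
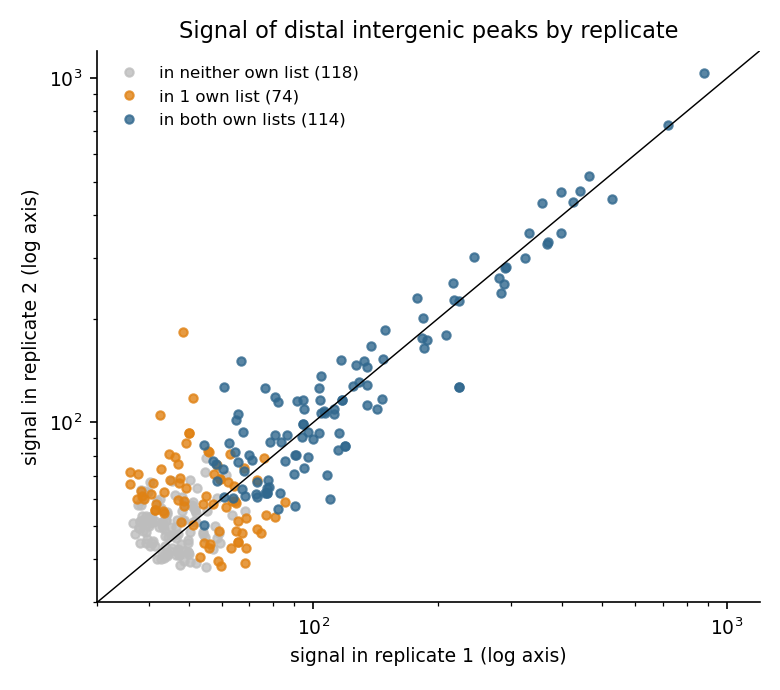
Signal in replicate 2 against replicate 1, both on log axes with no unit given, for the 306 distal intergenic peaks found in both ranked lists; the line marks equal values. The 114 peaks in both own lists (blue) run along the line up to 880.5 and 1036, the 118 in neither (grey) reach 78.7 at most in either replicate, and the 74 in 1 list are orange.

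Some low values were shoulders of a stronger peak. Of the 316, 25 overlapped a stronger peak of the joint list, with a median signal of 10.3 against 114.2 for the 291 that did not, and 24 of them were in the weakest decile. The lowest joint signal with support in both own lists, 10.3, belonged to a summit 134 bp from the 3' end of lin-9, which encodes a subunit of the DREAM repressor complex, and it shared its replicate peaks with the member 200 bp away that had 237.2. The weakest of all, 3.61, lay inside the pseudogene W09C5.9 and was in neither list. The strongest in neither list, 140.0, lay 629 bp upstream of ppm-1.A and inside the ncRNA gene F25D1.10.

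Most intervals with a distal intergenic peak held only 1. The peaks filled 274 intervals between protein-coding genes, of which 240 held 1, 29 held 2 and 5 held 3 or more. Another joint summit lay within 1000 bp for 76 of the peaks, 24.1%, and for 51 of these the nearest one was also distal intergenic. One lay within 2000 bp for 35.8% and within 5000 bp for 49.1%. Matching shares of the other peak classes are not given. The closest summits were 199 bp apart, as between vet-6 and M01E5.2 on chromosome I, where the stronger had 128.7 and the weaker, its shoulder, 20.2.

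One interval held 6 members. It was the convergent space of 23880 bp between C30E1.4 and F52G3.8 on chromosome X, where the summits lay within 2929 bp of each other and 5 of them inside the ncRNA gene C30E1.9. Their joint signals ran from 10.6 to 131.7, and 2 of the 6, the strongest and the weakest, were in both own lists. In this interval 1 member overlapped a stronger peak. The weakest summit, at base 16931166, lay close to the strongest, at 16930954, so these 2 may not be separate sites. The intervals with 3 members lay between F33E2.5 and T07D10.1 (57.1 to 359.3) and between lsy-22 and F27D4.7 (4.55 to 385.2) on chromosome I, and between gfl-1 and mep-1 (87.0 to 102.1) and tsen-34 and K08D10.11 (83.6 to 277.4) on chromosome IV. The interval between gfl-1 and mep-1 held no peak in both own lists.

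The farthest summit from a gene start lay near the left end of chromosome X, 35376 bp from the 5' end of Y73B3A.1, with a joint signal of 83.5 and in neither own list. The next was 9989 bp from the start of Y54F10AM.8 on chromosome III (146.8, in both own lists), in a convergent space that also held the summit 8492 bp away (169.3, in 1 own list). A summit 9796 bp upstream of pdfr-1, the gene of a neuropeptide receptor, had 141.1 and was in both own lists. All 3 lay in sequence with 52 to 57 loci. A summit 8688 bp from the start of C30E1.4 was among the 6 in the space described above (96.7, in neither).

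Chromosomes differed in how many they held. Per megabase that meets the rule there were 17.9 on chromosome I, 15.1 on III, 10.6 on II, 7.11 on V and 6.97 on X, with IV between III and II. On X distal intergenic peaks were 46 of 155 joint peaks, 29.7%, against 14.8% to 20.4% on the autosomes, and X had 50 promoter peaks against 168 to 199 on each autosome. The median signal on X was 102.1 against 112.0 for the autosomes together, the highest X value was 210.5, and 28.3% (17.3 to 42.5) of X members were in both own lists against 37.4% (31.9 to 43.3).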

How the data were processed

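ChIP-seq peak lists came from 2 biological replicates of 1 group, numbered by the labels. The authors deposited 8 lists, 4 of the whole series and 2 per replicate. Of these, 4 rank all peaks by the irreproducible discovery rate (IDR), which measures how well a pair of rankings match, and 4 keep the peaks past a cutoff. For each peak the deposited files hold the authors' signal value, with no stated scale, an IDR score between 830 and 1000 in the lists used after the cutoff, and the summit's offset. The deposited ranked lists also hold the −log10 of the IDR, which no result here uses. Chromatin was sonicated and the assembly is ce11, per the labels; no aligner or caller is named in the sources used here. In each of the 4 ranked lists, 8 columns beyond the 12th were not used.

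The conservative list past the cutoff served as the joint list. A joint peak counted as being in a replicate's own list past the cutoff when the 2 peaks overlapped by at least 1 bp, and its signal per replicate is that of the overlapping peak in the replicate's ranked list. Genes came from Ensembl release 115, and 2773 of 2778 genes listed there by ID alone took their names from RefSeq. The rule was applied to every base of the genome, of which 29.7 of 100.3 megabases met it. Each summit with 100 bp on either side was aligned to the genome with blastn (BLAST+ 2.17.0, E-value 1e-10), hits were merged into loci, and peaks linked by a hit formed a family. The family windows were aligned with MAFFT 7.526. Other steps used Python 3.11.15, pandas 2.3.3, numpy 2.4.6, networkx 3.6.1 and matplotlib 3.10.9. The class rule, interval types, overlaps and counts of sequence copies were checked on made-up examples with known answers.

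No test was made, since there is 1 group. Where a share is given with an interval, it is the 95% Wilson interval, and 0 has the limit of 3 counts. The members and lists were chosen with earlier results of these data known. Peaks named are the 12 with the highest joint signal, the 5 farthest from a 5' end, up to 5 with the highest signal within 200 bp of a pseudogene and up to 3 for each other non-coding class. The nearest pair, every interval with 3 or more members, and the highest and lowest in both own lists and in neither are also named. Further family members and peaks by pseudogenes were chosen after their values were seen. Alternatives were another series list, the stronger part of the joint list, each replicate alone, other distances, window sizes and copy measures, the 5' ends of all transcripts, and leaving out peaks that overlap a stronger one; the count of loci by alignment was added after seeing the data.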

Additional observations from a re-analysis of the deposited data

How the results depend on the processing

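Of 99 alternative values, 55 stayed within the SD of the replicates. That SD comes from the 2 own lists, which are also the alternatives with 1 replicate left out. For AT content the SD was 0, so any change fell outside it. The count of 55 is therefore a description and not a measure of robustness. In the list from pooled reads the share of peaks within 200 bp of a non-coding gene was 14.3% in place of 16.5%. In the stronger 0.5 of the joint list, distal intergenic peaks were 14.2% of peaks, 84.6% were in both own lists, and the ratio of medians was 0.919. There, 61.0% were nearer a 3' end, 25.2% in convergent intervals, 8.94% within 200 bp of a pseudogene, 13.0% near a non-coding gene and 35.8% in repeats, with a median AT of 55.4%. Taking peaks over 250 bp from a 5' end gave 30.9% of joint peaks, 42.1% in both lists, a ratio of 0.959, a distance of 656 bp, 43.8% nearer a 3' end, 12.7% convergent and 15.1% near a non-coding gene. Over 1000 bp, these peaks were 11.6%, with a distance of 2565 bp, 71.1% nearer a 3' end, 29.9% convergent, 8.46% near a pseudogene, 17.4% near a non-coding gene and an AT of 54.5%. A margin of 50 bp around small RNA genes gave 18.9% and 18.0% near a non-coding gene. In the ranked lists 96.8% were in both. Pseudogenes were at 0, within 500 and within 1000 bp of 1.58%, 12.3% and 15.5%, and non-coding genes at 0 and within 500 bp of 8.54% and 21.2%. Windows of 100 bp on either side had an AT of 57.0%. Sequence of 51 bases found again covered 12.3%, and 2 or more aligned loci, added after seeing the data, 38.0%. With 1 replicate left out, the share of peaks was 15.2% to 16.2%, the ratio 0.837 to 0.906, the distance 1505 to 1643 bp, nearer a 3' end 58.7% to 61.9%, convergent 19.7% to 23.8%, pseudogenes 7.56% to 10.2%, non-coding genes 10.9% to 12.2%, AT 54.5% in either, and repeats 26.5% to 31.4%. Where the cause is not in the construction of the alternative, the cause was not tested. No paired analysis was possible because there is 1 group and no test. Depth is unknown, so precision is limited by the 2 replicates.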
